A study of Bombus terrestris with 8 samples.

Results

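A pair of abundant miRNAs of Bombus terrestris larvae, bte-mir-375 and bte-mir-750, was followed through 8 small RNA libraries. They are the entries of those names in the deposited table, 2 of its 65 entries, and were chosen by their read totals over all libraries, both among the 10 highest, so their high totals are a description and not a result. The libraries were made from whole bodies of diploid female larvae destined to become workers. Late larvae (instar 4) and early larvae (instars 1 and 2) came from the same 4 colonies, larvae of 1 colony and 1 stage were pooled, and 4 libraries were made from each stage. Which colony a replicate number stands for is not in the sample descriptions, so the tests of stage treat the libraries as independent. The sample descriptions name no treatment, strain or allele for either stage. Because pools of whole bodies were sequenced, a change in the number of cells that hold a miRNA cannot be told apart from a change in its level per cell. The libraries held 45649 to 257161 reads on the 63 distinct mature sequences with a count in every library in late larvae, and 204223 to 502540 in early larvae. These sums, called listed reads here, are not the full depth of the libraries.

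A miRNA is cut from one arm of a hairpin precursor and guides a protein complex to transcripts that pair with its seed, bases 2 to 8 from the 5′ end, which are then repressed. mir-375 is an old animal family. In the mouse it is known for holding back insulin release from the beta cells of the pancreas, and in the mosquito Aedes aegypti it was described in females after a blood meal. mir-750 is a miRNA of insects and other invertebrates whose hairpin lies beside that of mir-1175 in several insects. mir-1175 was not analysed here.

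The mature sequences are shown because the seed decides which transcripts a miRNA can pair with, and because reads were counted on these sequences. They are written 5′ to 3′ in DNA letters as deposited, with the seed in capitals.
bte-mir-375: tTTGTTCGttcggctcgagtta
bte-mir-750: cCAGATCTaactcttccagctca
The seeds differ at 4 of 7 bases, and 0 other entries share either one. The whole sequences, 22 and 23 nt long, are 13 edits apart (substitutions, insertions and deletions). The most similar other entry is 10 edits from bte-mir-375 and 11 from bte-mir-750, and neither sequence occurs on either strand of another listed precursor, so the table holds no near-identical entry that their reads could have been split with. The letters a transcript needs for a full match to the seed are CGAACAA for bte-mir-375 and AGATCTG for bte-mir-750. bte-mir-375 begins with T, as do 42 of the 65 entries (U in the RNA), and bte-mir-750 begins with C, as do 8.

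The precursors are shown with the mature sequence in capitals, because they differ in length and in how they came to be listed.
bte-mir-375 precursor: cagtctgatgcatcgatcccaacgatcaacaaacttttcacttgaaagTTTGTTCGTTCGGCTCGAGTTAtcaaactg
bte-mir-750 precursor: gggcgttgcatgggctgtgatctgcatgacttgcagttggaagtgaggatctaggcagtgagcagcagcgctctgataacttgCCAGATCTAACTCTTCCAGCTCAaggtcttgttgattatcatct
The table places the precursor of bte-mir-375 on the minus strand of scaffold Group3.1 from 3558403 to 3558480, with the mature sequence from 3558411 to 3558432. That of bte-mir-750 lies on the plus strand of GroupUn639 from 84933 to 85059, with the mature sequence from 85016 to 85038. The coordinates are those the table gives, on the assembly of the study (Bter_1.0), and whether either locus lies in a gene, an exon or an intron was not analysed here. Neither scaffold holds another listed entry. bte-mir-375 had been predicted from the reads with miRCat, which searches the genome for hairpins where small RNAs pile up, whereas bte-mir-750 had been kept because it is conserved between Bombus and other species. With 127 nt the bte-mir-750 precursor was the longest of the 65, against 78 nt for bte-mir-375 and a median of 77 nt.

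Both mature sequences lie on the 3′ arm. No entry was listed on the 5′ arm of either hairpin, so the use of the arms was not analysed here. Folded with RNAfold, the precursor of bte-mir-375 had a minimum free energy of −28.3 kcal/mol and that of bte-mir-750 −48.1 kcal/mol, against a median of −34 kcal/mol over all entries. Per 100 nt these energies were −36.3 and −37.9 kcal/mol, against a median of −41.9 kcal/mol, so the lower energy of bte-mir-750 came with its greater length. In both folds 18 bases of the mature sequence were paired, all with the 5′ side, and all 7 seed bases were among them.

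**Figure D1:**
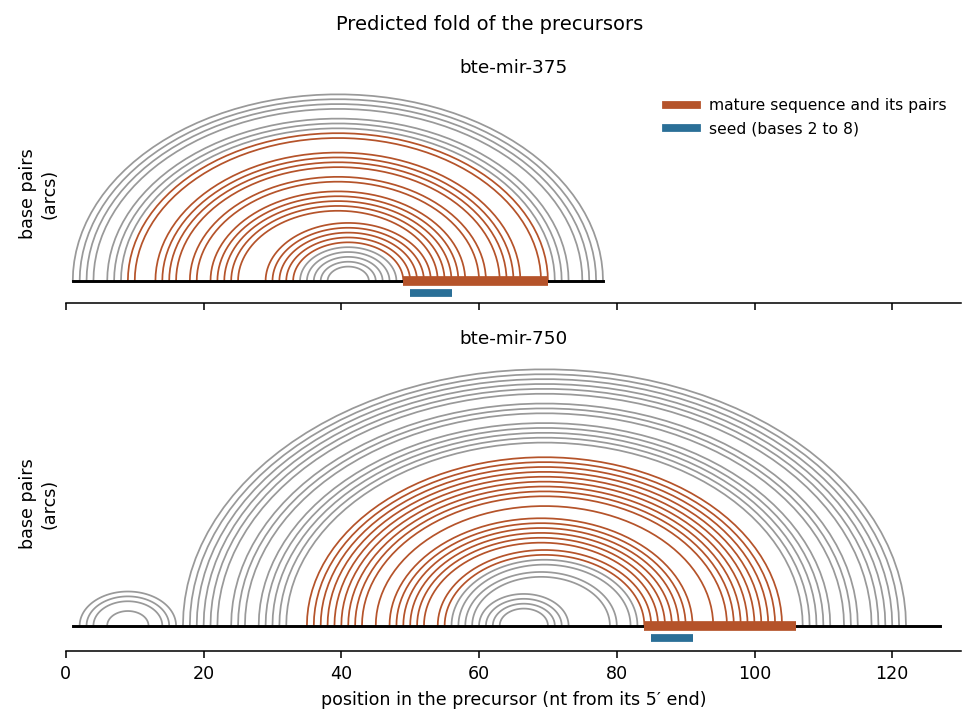
Predicted base pairs of the 2 precursors, with the position along the precursor (nt from its 5′ end) on the horizontal axis and an arc for each pair. Orange marks the mature sequence and its pairs, and blue the seed. The mature sequence covers positions 49 to 70 of 78 in bte-mir-375 and 84 to 106 of 127 in bte-mir-750, on the 3′ side of the loop in both.

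bte-mir-375 had 63140 reads over the 8 libraries, the seventh highest total, and bte-mir-750 had 48936, the eighth. They made up 3.07% and 2.38% of the 2055487 listed reads. bte-mir-1, a muscle miRNA in other animals and the most abundant entry, had 13.3 times the total of bte-mir-375 and 17.1 times that of bte-mir-750. The ninth, bte-mir-315, had 48854 reads, only 82 fewer than bte-mir-750, so their order could not be told apart by totals. At the edge of the rule that chose the members, the tenth total was 19999 reads (MC1917) and the eleventh 18362 (bte-mir-306).

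The share of bte-mir-375 was 3.09%, 2.21%, 5.01% and 3.22% of the listed reads in late replicates 1 to 4, against 2.82%, 3.07%, 3.28% and 2.87% in early replicates 1 to 4. The highest and the lowest share were both in late libraries, replicates 3 and 2, and the early libraries lay between them. The mean was 3.38% ± 1.18 in late larvae and 3.01% ± 0.211 in early larvae (SD, n = 4 each), a difference of 0.37 percentage points that turned to −0.17 without late replicate 3. bte-mir-375 ranked sixth in late replicates 1, 3 and 4, ninth in late replicate 2 and seventh in every early library.
The share of bte-mir-750 was 2.14%, 4.42%, 2.34% and 2.04% of the listed reads in late replicates 1 to 4, against 2.22%, 2.48%, 2.46% and 1.67% in early replicates 1 to 4. Late replicate 2 alone stood above every early library, and the other late libraries lay within the range of the early ones. The mean was 2.74% ± 1.13 in late larvae and 2.21% ± 0.375 in early larvae (SD, n = 4 each), a difference of 0.53 percentage points that turned to −0.04 without late replicate 2. By share of the listed reads, the library in which bte-mir-750 was highest was thus the one in which bte-mir-375 was lowest.

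**Figure D2:**
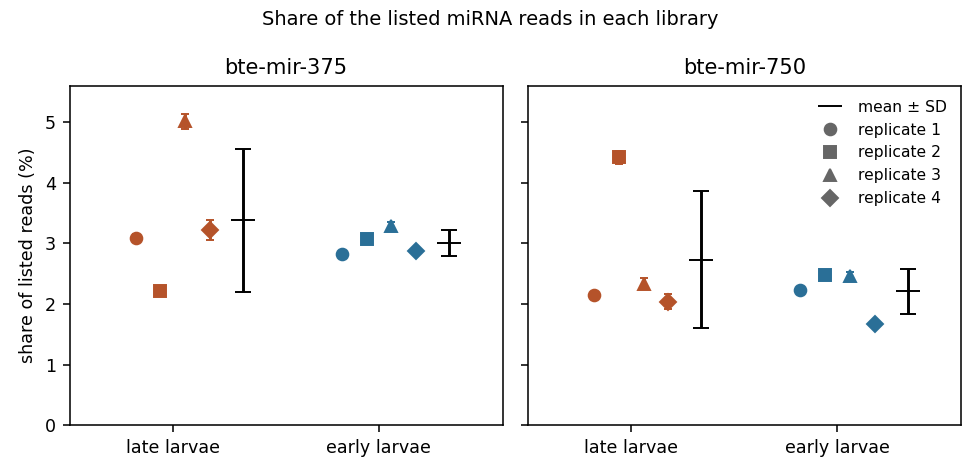
Share of the listed reads (vertical axis, %) taken by bte-mir-375 (left) and bte-mir-750 (right) in late and early larvae. Each symbol is 1 library with its 95% Clopper-Pearson interval, and the bar beside each group is the mean ± SD (n = 4). bte-mir-375 peaks in late replicate 3 (5.01%) and bte-mir-750 in late replicate 2 (4.42%). The early libraries span 2.82% to 3.28% for bte-mir-375 and 1.67% to 2.48% for bte-mir-750.

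Counting error was small beside these differences. The lowest count, 931 reads of bte-mir-750 in late replicate 4, gave a 95% Clopper-Pearson interval of 1.91% to 2.17% for its share. The 4.42% of late replicate 2 had an interval of 4.31% to 4.53%, and the 5.01% of bte-mir-375 in late replicate 3 one of 4.89% to 5.13%. Such intervals cover counting error only and treat each read as a separate draw. PCR copies of 1 molecule cannot be told from separate molecules here, so the intervals may be too narrow.

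For the comparison of stages, counts were expressed per 1000000 listed reads (CPM) after TMM normalization, which adjusts library sizes on the assumption that most miRNAs do not change. bte-mir-375 had 35246, 25548, 58600.4 and 28828 CPM in late replicates 1 to 4, against 24294, 26853, 29396 and 30806 CPM in early replicates 1 to 4. The stages overlapped, since late replicates 1 and 3 were above every early library and late replicates 2 and 4 within their range. On this scale bte-mir-375 was lowest in early replicate 1, and not in late replicate 2 as by share. The mean was 37056 ± 14917 CPM in late larvae and 27837 ± 2873 CPM in early larvae (SD, n = 4 each). The log2 fold change of late over early larvae was 0.41 (standard error 0.25), and did not pass edgeR's quasi-likelihood test (adjusted p = 0.209 by Benjamini and Hochberg over the 62 miRNAs tested). It was 0.10 without late replicate 3, 0.05 without late replicate 1 and 0.06 without early replicate 2. Measured from the median of all tested miRNAs in the same fit, these were −0.02, 0.56 and 0.31, against 0.23 with all libraries. Only the drop without late replicate 3 thus also brought bte-mir-375 nearer the median. This does not show that the drop was particular to bte-mir-375. Without the other 2 libraries the median itself fell, to −0.51 and −0.26.

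bte-mir-750 had 24452, 51104, 27341 and 18283 CPM in late replicates 1 to 4, against 19142, 21648, 22028 and 17991 CPM in early replicates 1 to 4. Late replicates 1, 2 and 3 were above every early library, and late replicate 4, which had the fewest reads, lay within the early range. The mean was 30295 ± 14378 CPM in late larvae and 20202 ± 1953 CPM in early larvae (SD, n = 4 each). The log2 fold change of late over early larvae was 0.58 (standard error 0.28), which did not pass either (edgeR, unadjusted p = 0.0528, adjusted p = 0.117). The call depended on single libraries. Leaving out late replicate 4 gave a log2 fold change of 0.76 that passed the test (edgeR adjusted p = 0.0363), and over all alternatives the adjusted p ranged from 0.0363 to 0.897. Dropping late replicate 2, late replicate 1 or early replicate 2 lowered the change to 0.14, 0.13 and 0.15, in that order. Taken from the median of all tested miRNAs in the same fit, these were 0.14, 0.64 and 0.41, against 0.40 with all libraries. Of these drops, only that without late replicate 2 thus also brought bte-mir-750 nearer the median. It was not particular to bte-mir-750, since MC1917 moved from 0.74 to 0.48 above the median without the same library. In the fit without late replicate 4 that passed, the distance from the median was 0.45, since the median rose to 0.32.

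Thus 0 of the 2 miRNAs passed an adjusted p of 0.05, where 20 of the 62 tested, 32.3%, did (12 higher and 8 lower in late larvae). Neither had an unadjusted p under 0.05, as 27 of the 62 had. The stages did not overlap for 0 of the 2, where again 32.3% of the tested miRNAs had no overlap. A miss at this size of sample does not show that the levels were the same. The median log2 fold change of all 62 was 0.18, and it moved with the scaling and with the libraries kept. Relative to that median the changes were 0.23 for bte-mir-375 and 0.40 for bte-mir-750. When each library was scaled by its listed reads instead, the log2 fold changes were 0.17 and 0.31 (edgeR adjusted p = 0.560 and 0.373), around a median of −0.09.

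Of the other 8 miRNAs among the 10 highest totals, 3 passed the test. bte-mir-184 and MC1917, which carries no miRBase identifier, were higher in late larvae (log2 fold change 1.07 and 0.92, edgeR adjusted p = 0.00273 and 0.0271), and bte-bantam, which promotes growth in Drosophila, was lower (log2 fold change −0.86, edgeR adjusted p = 0.0129). The call of bte-bantam was kept in all 14 alternatives. That of bte-mir-184 was lost without early replicate 2 (edgeR adjusted p = 0.138) and that of MC1917 in 9 of 14 alternatives. The median log2 fold change of the 8 was −0.05. The changes of bte-mir-375 and bte-mir-750 lay between those of bte-bantam and MC1917 and ranked 24th and 21st from the highest of the 62.

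**Figure D3:**
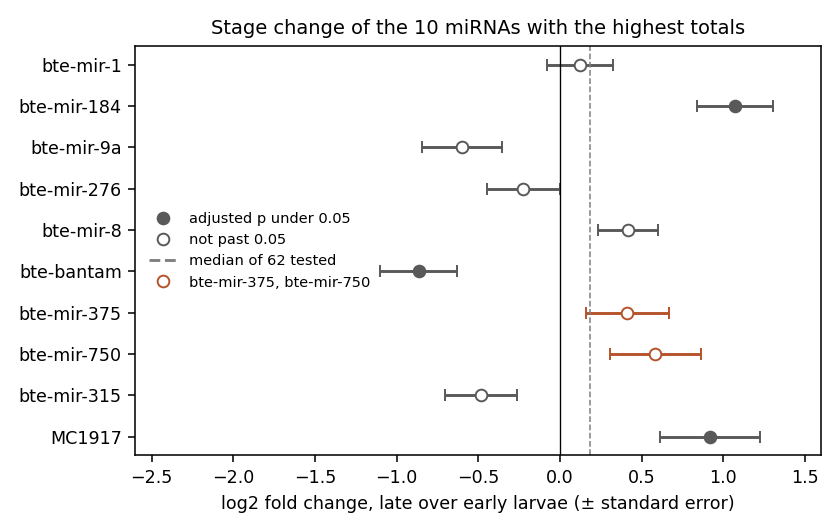
Log2 fold change of late over early larvae (horizontal axis, bars ± 1 standard error) for the 10 miRNAs with the highest totals, in the order of their totals. Filled symbols passed an adjusted p of 0.05 and the dashed line is the median of the 62 tested, 0.18. bte-mir-375 (0.41) and bte-mir-750 (0.58), in orange, are positive but open.

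The spread between replicates of both miRNAs was wider in late larvae. The coefficient of variation (SD as a percentage of the mean, on CPM) of bte-mir-375 was 40.3% in late larvae and 10.3% in early larvae. That of bte-mir-750 was 47.5% in late larvae and 9.67% in early larvae. The wider spread of late larvae was not particular to them: 55 of the 62 miRNAs, and 7 of the other 8 among the highest totals, had a higher coefficient in late larvae, with medians over all 62 of 56.0% in late and 21.9% in early larvae. The other 8 ranged from 10.96% to 49.5% in late larvae (median 25.9%) and from 3.97% to 25.5% in early larvae (median 12.3%). In late larvae both miRNAs thus lay above the median of these 8, though below that of all 62. Only MC1917 among the 8 varied more than bte-mir-375 or bte-mir-750 in late larvae. Counting alone would give 1.12% to 3.28% for these miRNAs in late libraries and 0.804% to 1.48% in early libraries. Late libraries also had fewer reads, and the part of depth in the wider spread was not tested.

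The ratio of the 2 miRNAs within a library needs no scaling. bte-mir-750 made up 41.0%, 66.7%, 31.8% and 38.8% of the reads of both in late replicates 1 to 4, against 44.1%, 44.6%, 42.8% and 36.9% in early replicates 1 to 4. bte-mir-375 was the more abundant of the pair in 7 of the 8 libraries and bte-mir-750 in late replicate 2, where it had 6265 reads against 3132. The 95% Clopper-Pearson interval there was 65.7% to 67.6%, clear of every other library, and that of late replicate 3, 30.9% to 32.8%, was clear of every other library on the low side. In counts of bte-mir-750 per read of bte-mir-375, the ratio ran from 0.467 to 2.00 in late larvae and from 0.584 to 0.806 in early larvae.
The mean log2 ratio was −0.32 ± 0.91 in late larvae and −0.46 ± 0.21 in early larvae (SD, n = 4 each), a difference of 0.14 (exact permutation test on both sides, p = 0.914, where 0.0286 is the smallest p that 4 against 4 libraries allow). The direction rested on late replicate 2, since without it the difference was −0.30 (exact permutation test, p = 0.2). Together the pair held 5.23%, 6.63%, 7.35% and 5.26% of the listed reads in late replicates 1 to 4, against 5.05%, 5.55%, 5.74% and 4.54% in early replicates 1 to 4.

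**Figure D4:**
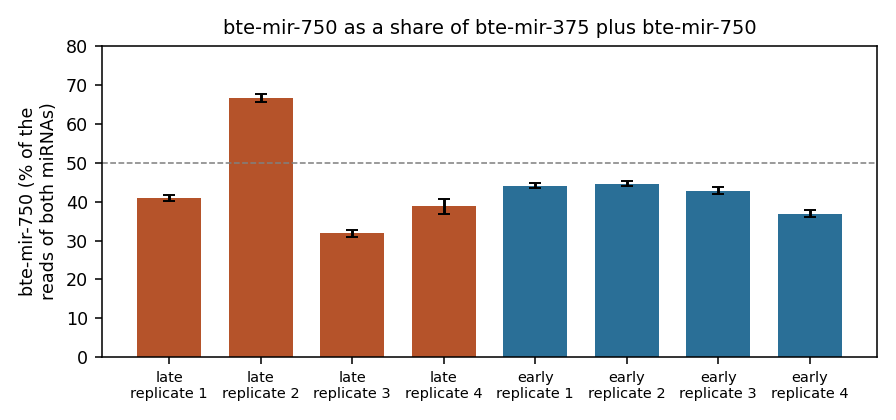
Reads of bte-mir-750 as a percentage of the reads of both miRNAs (vertical axis) in each library, with 95% Clopper-Pearson intervals. The dashed line marks 50%. Only late replicate 2 (66.7%) lies above it, and late replicate 3 (31.8%) is the lowest.

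Across the 8 libraries the log2 CPM of the 2 miRNAs showed no relation that held. Pearson's r was 0.05 (exact permutation test, p = 0.862) and Spearman's rho 0.14 (exact permutation test, p = 0.752). Without the libraries farthest from the median of bte-mir-375, late replicates 3 and 1, r was −0.42 (exact permutation test, p = 0.457). For deviations from the mean of each stage, r was −0.24 (exact permutation test within stages, p = 0.747) and rho −0.07 (p = 0.884, same exact permutation test). Benjamini-Hochberg adjustment over the 4 permutation p-values from all 8 libraries gave 0.884 for each. Each stage alone has too few libraries for a correlation of its own.
This value hung on late replicate 2. Without it r was 0.78 over the remaining 7 libraries (exact permutation test, p = 0.026, not adjusted), and 0.71 for deviations from stage means (exact permutation test, p = 0.312). Without late replicate 3 r was −0.24 (exact permutation test, p = 0.579). As shares of the listed reads, which do not use TMM, r over the 8 libraries was −0.42 (exact permutation test, p = 0.256).

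**Figure D5:**
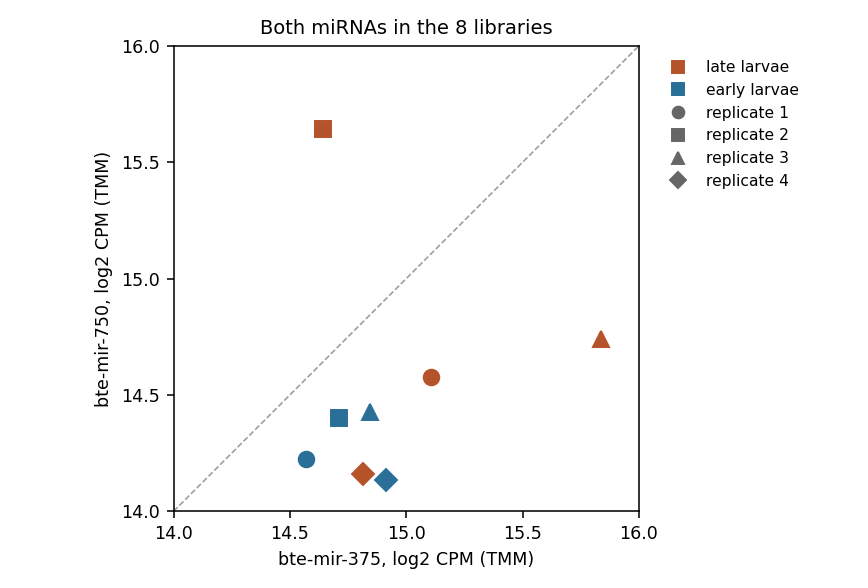
Log2 CPM after TMM normalization of bte-mir-375 (horizontal axis) and bte-mir-750 (vertical axis) in the 8 libraries, with orange for late larvae, blue for early larvae and a symbol for each replicate number. The dashed line marks equal levels. Late replicate 2 lies above the line, late replicate 3 far to the right, and the other 6 libraries near each other.

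Set beside all tested miRNAs, the 2 libraries moved the pair in different ways. In late replicate 2, bte-mir-750 was 0.86 above its late mean on the log2 scale, the 13th highest of the 62 deviations, and bte-mir-375 was 0.46 below its late mean, the 59th. The median deviation of the 62 in that library was 0.31, with 49 above their late mean, and bte-mir-375 was not among these. The deviations of a miRNA balance out over the late libraries. In late replicate 4, which had the fewest reads, the median deviation was −0.60, with 16 of the 62 above their late mean. The part of that library in the deviations of late replicate 2 was not tested. In late replicate 3, bte-mir-375 was 0.74 above its late mean, the 11th highest, and bte-mir-750 was 0.04 below its mean, the 38th, with a median deviation of 0.06. Late replicate 2 was the highest late library for 21 of the 62 miRNAs, bte-mir-276 and MC1917 among the 10 highest totals, and late replicate 3 for 15, bte-mir-184 among them.

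The miRNAs whose pattern was most like each of the 2 were found by Pearson's r of log2 CPM over the 8 libraries. The values compared share library, depth and scaling. The 3 highest of 61 r were taken for each, so they are high by selection, and they were not tested. For bte-mir-375 they were bte-mir-2765 (r = 0.63), bte-let-7 (r = 0.61) and bte-mir-184 (r = 0.57). For bte-mir-750 they were bte-mir-3477 (r = 0.80), bte-mir-277 (r = 0.78) and bte-mir-307 (r = 0.75). Of these, bte-mir-307 had only 366 reads in all, and 3 in late replicate 4. The 3 nearest to bte-mir-375 all passed the test of stage and were higher in late larvae (log2 fold change 2.31, 1.05 and 1.07, edgeR adjusted p from 0.000123 to 0.0181), whereas the 3 nearest to bte-mir-750 did not pass it (log2 fold change 0.40, 0.09 and 0.37, edgeR adjusted p from 0.297 to 0.774). These r include the difference between stages. With deviations from stage means, bte-mir-2765 was again nearest to bte-mir-375 (r = 0.72), but bte-let-7 was 11th (r = 0.46) and bte-mir-184 15th (r = 0.39). For bte-mir-750, bte-mir-276 was then nearest (r = 0.89), and bte-mir-3477, bte-mir-277 and bte-mir-307 were 9th, 5th and 6th (r = 0.76, 0.84 and 0.83). bte-mir-2765 had 2708, 2472, 3780.4 and 1434 CPM in late replicates 1 to 4, against 505, 481, 487 and 623 CPM in early replicates 1 to 4, and like bte-mir-375 peaked in late replicate 3. bte-mir-3477 had 4427, 7504, 4192 and 3063 CPM in late replicates 1 to 4, against 3402, 2968, 3399 and 4784 CPM in early replicates 1 to 4, and like bte-mir-750 peaked in late replicate 2. Of the 61 other miRNAs, bte-mir-750 was 28th in likeness to bte-mir-375, and bte-mir-375 was 41st in likeness to bte-mir-750.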

How the data were processed

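The 3′ adaptor of the small RNA libraries ended in 4 degenerate bases, to lessen bias at ligation. Reads of all 8 libraries were pooled by the authors and mapped to the B. terrestris genome for prediction with miRCat. Further entries were kept by conservation, and the authors deposited raw counts for each mature sequence and library. The aligner, the counting of end variants and any removal of duplicates are not given in the sources used here, and could change every count. Count columns were matched to libraries by stage initial and replicate number (0 columns of per-sample values were left over).

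The entry with blank cells in 7 libraries was left out and a mature sequence listed at 2 loci was counted once, which left 63 sequences. Stage was tested on those with at least 10 reads in all (62), as the only term of a quasi-likelihood fit in edgeR 4.0.16 (R 4.3.3) after TMM normalization, with Benjamini-Hochberg adjustment. A standard error is the absolute log2 fold change over the square root of F, an approximation. Log2 CPM used a prior count of 2. Single values were tested by full enumeration with Python 3.11.15, and precursors were folded with RNAfold 2.7.2. The scripts were tested on simulated data. Replicates of a stage are pools of larvae, and the tests of stage weigh a difference against the spread between these pools. In edgeR the estimate of that spread also draws on the other tested miRNAs.

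The 2 miRNAs, the list of the 10 highest totals and the tests were chosen with earlier results of these data known. Named beside them were the other 8 of that list, the 11th, and the 3 miRNAs with the highest r to each. Alternatives were DESeq2 1.42.0, no filter, scaling by listed reads, normalization without bte-mir-1, the replicate number as a block, other denominators and pseudocounts, and leaving out each library. Leaving out late replicates 2 and 3 together was added after the data had been seen.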

Additional observations from a re-analysis of the deposited data

Results flagged for a closer look

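One value stood far from the others of its stage. The share of bte-mir-750 in late replicate 2 was 4.42% of the listed reads, and its distance to the next late library (2.34% in late replicate 3) was 0.874 of the whole range of the late libraries, above Dixon's critical value for 4 samples at the 95% level. On the CPM scale after TMM normalization the same library, with 51104 CPM, had a value of 0.724 and did not pass. Of 10 sets of 4 libraries examined this way, 1 passed, and chance alone passes about 1 in 20.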

How the results depend on the processing

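The stage change of bte-mir-375 stayed positive and short of 0.05 in all 14 alternatives (log2 fold change 0.05 to 0.52, edgeR or DESeq2 adjusted p from 0.119 to 0.916), and that of bte-mir-750 stayed positive in all 14 (0.06 to 0.76) and passed in 1, without late replicate 4 (0.76). With single libraries left out the ranges were 0.05 to 0.52 and 0.13 to 0.76. Measured from each fit's median over all tested miRNAs, bte-mir-375 ran from −0.02 to 0.56 and bte-mir-750 from 0.09 to 0.64. That median was −0.51 without late replicate 1 and 0.32 without late replicate 4. bte-mir-1 turned negative with scaling by the listed reads (log2 fold change −0.12) and ranged from −0.47 to 0.24 with single libraries left out. The cause of these shifts was not tested. The number of miRNAs called was 15 to 29 in the alternatives, against 20. Of the other 8 miRNAs with high totals, 3 were called, 5 with scaling by the listed reads and 2 to 6 with single libraries left out.

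The difference between stages in the log2 ratio ranged from −0.30 to 0.40 with single libraries left out, and was −0.13 without late replicates 2 and 3 (exact permutation test, p = 0.467). The correlation over libraries was −0.42 with shares of the listed reads, −0.36 per 1000000 listed reads outside both miRNAs, and −0.24 to 0.78 with single libraries left out. Within stages it was −0.65 to 0.71 with single libraries left out and 0.44 without late replicates 2 and 3. The late minus early difference in share, 0.37 percentage points for bte-mir-375 and 0.53 for bte-mir-750, turned to −0.17 without late replicate 3 and to −0.04 without late replicate 2. These moves were smaller than the SD of the late libraries and larger than that of the early ones.

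Both stages carry replicate numbers 1 to 4, but the sample descriptions do not tie a number to a colony, so the block is not known to be a colony block, and same-numbered libraries did not deviate together over the 62 miRNAs (r from −0.12 to 0.07). With the replicate block the log2 fold change was 0.34 for bte-mir-375 and 0.48 for bte-mir-750 (edgeR adjusted p = 0.349 and 0.191). For the log2 ratio the mean of the 4 differences between same-numbered libraries is by arithmetic the difference of the stage means, 0.14, so only the p differs (exact sign-flip permutation test, p = 0.875). In late replicate 4, with the fewest reads, a count of 0 allowed up to 65.7 CPM, far under the level of either miRNA, so depth did not limit their detection. The part of depth in the stage changes was not tested.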
